A study of Mus musculus with 4 samples.

Results

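EphB receptors and ephrins are cell-surface partners that steer axons, and 10 of their genes are described here by the accessible chromatin around them: the receptor genes Ephb1, Ephb2, Ephb3 and Ephb6, the A-class ephrin genes Efna2, Efna3 and Efna5, and the B-class ephrin genes Efnb1, Efnb2 and Efnb3. Open DNA was mapped by ATAC-seq, a method that lets a transposase insert sequencing adaptors wherever chromatin is accessible, in motor neurons sorted from the cervical spinal cord of mice at embryonic day 12.5. There were 2 Hoxa5-deficient libraries and 2 control libraries from littermates. All cells were sorted for GFP from the ChAT::GFP transgene, a reporter of cholinergic cells that both genotypes carry. The labels call the libraries biological replicates, name no Hoxa5 allele, and give neither the embryos per library nor their sex. Overlapping peak intervals of the 4 lists were merged into 199576 regions, and each region was given to the protein-coding gene body that holds its midpoint, otherwise to the nearest body within 100 kb. The 10 genes held 351 regions in all, 198 at the receptors, 100 at the A ephrins and 53 at the B ephrins.

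Eph receptors are receptor tyrosine kinases that bind ephrins on neighbouring cells, and signals pass into both cells at the contact. A ephrins are held in the membrane by a lipid anchor and mainly bind EphA receptors, while B ephrins span the membrane and mainly bind EphB receptors. In limb-innervating motor neurons, ephrins met along the way repel axons that carry the matching receptors and so sort them into dorsal and ventral paths. Ephrin-A ligands also act in the ordered mapping of phrenic motor axons on the diaphragm. Hoxa5, a homeodomain transcription factor, acts with its Hox5 paralogs in phrenic motor neurons.

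The Hoxa5-deficient lists held 192771 and 206114 peak summits, against 165866 and 163016 in the control lists. As a gauge of read depth, the lowest background among 20000 sampled summits per library was taken. It was 5.14 and 6.06 tags in Hoxa5-deficient libraries and 5.43 and 4.39 in control libraries. Both regions assigned to Hoxa5 were found in all 4 libraries, but since the removed part of the gene is not given they do not check the genotype. Of 9 motor neuron marker genes (such as Mnx1, Isl1 and Chat), 7 had a region within 1 kb of a gene end in all 4 libraries. Regions of these motor neuron genes were 0.0521% and 0.0560% of all regions in Hoxa5-deficient libraries, against 0.0547% and 0.0506% in controls. The groups overlapped. Both Hoxa5-deficient libraries and neither control held 9 of these regions, against 9.16% of all regions within 100 kb of a gene. Both controls and neither Hoxa5-deficient library held 0, against 3.5% of all. Of 8 endothelial markers 4 had such a region in all 4 libraries, and Pecam1, Cdh5 and Tek had none in any library. Of 5 blood markers, Gata1 and Ptprc had none in any library, and the other 3 had one in all 4 libraries. All 8 neural progenitor markers had one in all 4 libraries. Regions of these progenitor genes were 0.0709% and 0.0680% of all regions in Hoxa5-deficient libraries, against 0.1002% and 0.0908% in controls. Of 8 interneuron markers 6 had such an end, and their regions were 0.106% and 0.108% in Hoxa5-deficient libraries, against 0.156% and 0.136% in controls. Of 6 glial markers 5 had one, and their regions were 0.0978% and 0.0844% in Hoxa5-deficient libraries, against 0.118% and 0.111% in controls. The groups did not overlap for these 3 lists. They also lay apart for 5 sensory neuron markers (4 with such an end), at 0.0334% and 0.0351% in Hoxa5-deficient libraries against 0.0401% and 0.0412% in controls, and for 5 mesenchyme markers (3 with such an end), at 0.0342% and 0.0403% in Hoxa5-deficient libraries against 0.0446% and 0.0412% in controls. Endothelial regions overlapped, at 0.0538% and 0.0627% in Hoxa5-deficient libraries against 0.0565% and 0.0468% in controls, as did those of the blood markers, at 0.0155% and 0.0179% in Hoxa5-deficient libraries against 0.0191% and 0.0178% in controls. The shares of 5 of the 8 lists thus lay apart between the groups, and their part in the results on the 10 genes was not tested. Regions in both Hoxa5-deficient libraries only and in both controls only numbered 10 and 16 for progenitor and for interneuron markers. They numbered 11 and 14 for glial, 4 and 4 for sensory neuron and 6 and 6 for mesenchyme markers. For endothelial markers they numbered 14 and 4, and for blood markers 2 and 2. Over all 165822 regions within 100 kb of a gene they numbered 15186 (9.16%) and 5809 (3.5%). Totals of regions per marker list, also for motor neurons, are not at hand, so these counts cannot be read as shares.

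The starts of the 9 genes with a known strand, and both ends of Efnb3, were open in both genotypes. RefSeq promoter windows, from 250 bases before to 50 after a start (build GRCm38.p6), were at hand for 9 of the 10 genes, with 2 windows for Efna3. All 10 windows were overlapped by a region found in all 4 libraries, against 60.5% of 21263 windows of protein-coding genes. The bases before the start were rich in G and C, from 54.0% at Ephb1 to 76.8% at Ephb6, against a median of 52.4% over all windows. They were searched on both strands for 5 motifs. GGGCGG, the GC box of Sp factors, lay in 7 of the 10 windows, against 32.7% of all 32851 RefSeq windows. This base, used for all 5 motifs, is wider than the 21263 windows of protein-coding genes. CCAAT lay in 4, against 33.8% of all, and TATAAA in 1, against 12.4%. The homeodomain core TAATTA and the Hox-Pbx form TGATTNAT lay in none of the 10, against 4.84% and 2.82% of all windows. No matches overlapped one another. The windows of the receptor Ephb3, with the family's strongest region, of Ephb1, with CCAAT and no GC box, of Efna5, the start whose percentiles differed most between genotypes, and of Efnb2, with 3 kinds of motif, are shown as the 250 bases before the start, in the direction of transcription, with motif matches in capitals.
Ephb3 (chr16:21204545-21204794, plus strand): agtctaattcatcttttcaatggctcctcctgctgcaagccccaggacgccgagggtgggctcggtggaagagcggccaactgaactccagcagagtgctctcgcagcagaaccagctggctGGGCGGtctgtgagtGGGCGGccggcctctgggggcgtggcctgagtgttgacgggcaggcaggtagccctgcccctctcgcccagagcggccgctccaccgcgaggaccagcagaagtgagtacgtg
Ephb1 (chr9:102354694-102354943, minus strand): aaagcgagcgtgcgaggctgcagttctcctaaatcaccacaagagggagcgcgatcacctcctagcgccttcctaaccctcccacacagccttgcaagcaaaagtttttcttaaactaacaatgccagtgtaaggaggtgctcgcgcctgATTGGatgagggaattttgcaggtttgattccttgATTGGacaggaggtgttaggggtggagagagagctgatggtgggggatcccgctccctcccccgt
Efna5 (chr17:62881318-62881567, minus strand): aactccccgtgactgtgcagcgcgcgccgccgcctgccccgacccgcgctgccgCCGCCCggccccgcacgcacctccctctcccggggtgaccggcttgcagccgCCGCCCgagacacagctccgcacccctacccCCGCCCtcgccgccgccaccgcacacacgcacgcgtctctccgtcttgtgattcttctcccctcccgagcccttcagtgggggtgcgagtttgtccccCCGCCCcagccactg
Efnb2 (chr8:8661243-8661492, minus strand): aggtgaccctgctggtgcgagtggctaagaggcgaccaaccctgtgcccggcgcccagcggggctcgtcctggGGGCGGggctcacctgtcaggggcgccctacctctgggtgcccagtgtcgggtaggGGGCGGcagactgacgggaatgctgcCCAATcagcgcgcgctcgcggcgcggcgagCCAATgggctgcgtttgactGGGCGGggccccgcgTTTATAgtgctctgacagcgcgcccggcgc

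Strength was compared among the 65789 regions found in all 4 libraries. Each region was placed in each library by the −log10 p of its strongest summit as a percentile among these regions, 0 being the weakest and 100 the strongest. The region over the start of Ephb3, a receptor that repels axons at B ephrins, stood at percentiles 99.6 and 99.5 in Hoxa5-deficient libraries, against 98.9 and 99.8 in controls. At its summit lay 893 and 1179 tags in Hoxa5-deficient libraries and 648 and 697 in controls. The start of Ephb1 stood at 92.3 and 92.8 in Hoxa5-deficient libraries and at 90.4 and 92.8 in controls, and that of Ephb2 at 89.3 and 89.8 in Hoxa5-deficient libraries and 89.4 and 90.9 in controls. The groups overlapped at all of these receptor starts. Ephb6, a receptor that lacks kinase activity, had 86.9 and 88.2 in Hoxa5-deficient libraries against 88.6 and 87.5 in controls, again overlapping. A signal from fewer cells and a weaker signal in every cell cannot be told apart in such sorted pools.

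Among the ephrins, which act as ligands, Efnb2 had the strongest start, at 91.8 and 94.1 in Hoxa5-deficient libraries against 94.2 and 94.4 in controls. Efnb1 (chromosome X) had 90.3 and 91.0 in Hoxa5-deficient libraries against 88.1 and 88.8 in controls. Efna2 had 74.6 and 81.2 in Hoxa5-deficient libraries against 82.1 and 77.9 in controls. The controls were the higher group at Efnb2 and the lower one at Efnb1, by under 3 points each, and the groups overlapped at Efna2. The start regions of Efna3 had 77.9 and 81.4 in Hoxa5-deficient libraries against 73.5 and 78.8 in controls, and 77.9 and 78.5 in Hoxa5-deficient libraries against 80.4 and 74.7 in controls, overlapping both times. Efna5, the ligand with a role in repelling EphA-bearing motor axons, had the weakest start: 67.0 and 67.4 in Hoxa5-deficient libraries, against 58.1 and 48.4 in controls. There the groups did not overlap, with a difference in normal score of 0.36 (SE 0.143) and an adjusted p of 0.202 by limma. Efnb3 had a region within 1 kb of each end in all 4 libraries. Of 2 regions near its end of higher coordinate, only 1 was given to Efnb3 (chromosome 11, 69559428 to 69560636). That region had 61.2 and 61.1 in Hoxa5-deficient libraries against 68.6 and 51.3 in controls. The strongest region given to Efnb3, 1.01 kb outside the gene (69552697 to 69553471), had 78.5 and 75.1 in Hoxa5-deficient libraries against 83.5 and 83.5 in controls, with the groups apart. Which end of Efnb3 is its start is not known here. For Efna5 and Efna3 the strongest region was not the start. That of Efna5 lay 1.84 kb upstream (62882723 to 62883590), at 85.9 and 78.5 in Hoxa5-deficient libraries against 84.2 and 88.5 in controls. That of Efna3 lay 5.42 kb beyond its far end (89308115 to 89308844), at 75.9 and 80.4 in Hoxa5-deficient libraries against 82.1 and 83.1 in controls, the groups overlapping for Efna5 and not for Efna3.

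**Figure D1:**
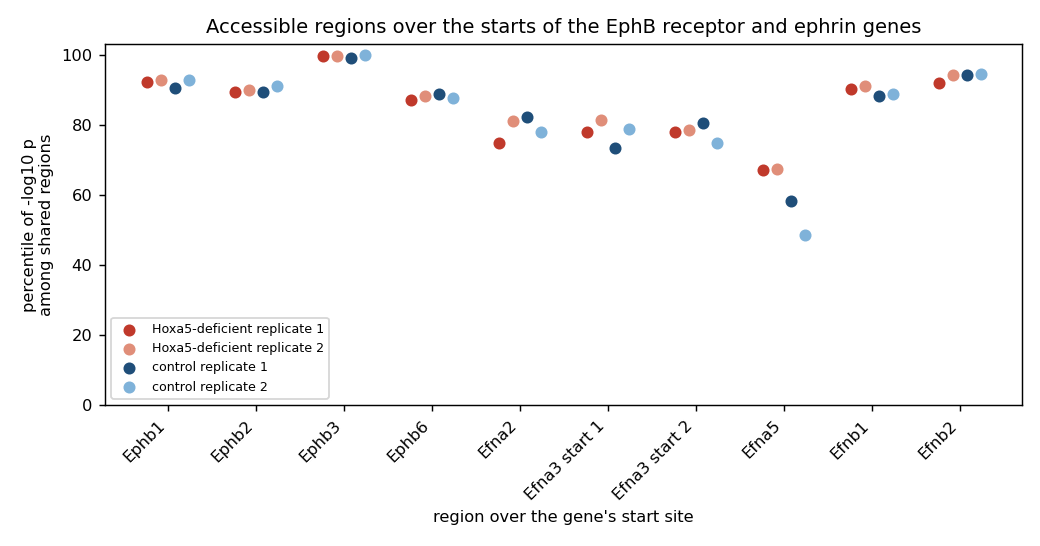
Percentile of −log10 p among the regions shared by all 4 libraries (y axis, 0 to 100) for each region over a start of the 9 genes with a promoter window (x axis), with 1 point per library in the colour of its replicate. Ephb3 sits near the top in every library, and Efna5 is lowest, with 67.0 and 67.4 in Hoxa5-deficient libraries and 58.1 and 48.4 in controls.

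None of the 10 start regions passed limma's test on normal scores of the ranks (Hoxa5-deficient minus control, Benjamini-Hochberg adjusted p under 0.05 over all shared regions), and none had an unadjusted p under 0.05. Of the 10540 shared regions over any protein-coding start, 0.285% passed, against 4.76% of the 55249 elsewhere. The groups did not overlap at 3 of the 10 family starts (Efna5, Efnb1 and Efnb2), against 54.3% of all start regions. In the fit with a variance trend, an alternative setting, none of the 10 passed either. Of the 20 gene ends of the family, 13 had a region within 1 kb in all 4 libraries and the other 7 had none in any library. All 7 were far ends, those of the 4 receptors, Efna3, Efna5 and Efnb2, while the far ends of Efna2 and Efnb1 had a region in all 4 libraries. That of Efnb1 (99148030 to 99148496) was weak. It stood at 30.1 and 9.26 in Hoxa5-deficient libraries against 11.6 and 0.00380 in controls, the last at the floor of the shared regions.

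Away from the 10 start regions, 110 further regions were shared by all libraries. This count holds the 3 shared regions of Efnb3, which had no promoter window, so its start may be among them. The 110 regions had a median length of 729 bp against 1485.5 bp at the starts. Their median summit height was 41.5 and 55.0 tags in Hoxa5-deficient libraries and 40.0 and 35.5 in controls, and that of the start regions was 279.5 and 410.5 in Hoxa5-deficient libraries and 251.5 and 213 in controls. Of all 120 shared family regions, 32 were higher in both Hoxa5-deficient libraries than in either control, against 29.1% of all shared regions. A further 46 were lower in both Hoxa5-deficient libraries, against 32.8%. These are 26.7% and 38.3% of the family's regions, and the median difference was −2.31 percentile points, against −0.529 over all shared regions. Non-overlap at 63.3% of all shared regions away from starts shows that it is common here. The limma test called 3 family regions higher in Hoxa5-deficient libraries, against 2.4% of all shared regions, and 3 lower, against 1.65%.

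The 3 regions that rose belong to ephrins. Inside Efna5, 65.6 kb from its start (chromosome 17, 62815326 to 62816068), a region stood at 50.3 and 50.3 in Hoxa5-deficient libraries against 10.96 and 8.96 in controls. Its summit held 47 and 66 tags in Hoxa5-deficient libraries and 19 and 15 in controls, and the difference in normal score was 1.29 (SE 0.121, limma adjusted p = 0.0448). Another inside Efna5, 34.9 kb from the start (62846034 to 62846864), stood at 58.7 and 62.6 in Hoxa5-deficient libraries against 21.6 and 23.4 in controls (difference 1.03, SE 0.121, limma adjusted p = 0.0453). Both Hoxa5-deficient libraries thus lay well above both controls in each region. The third lay 74.5 kb beyond the far end of Efnb2, which encodes a membrane-spanning ligand of EphB receptors (chromosome 8, 8542351 to 8543040). It stood at 66.4 and 74.1 in Hoxa5-deficient libraries against 27.9 and 22.4 in controls, with 67 and 120 tags in Hoxa5-deficient libraries against 26 and 20 in controls (difference 1.21, SE 0.151, limma adjusted p = 0.0459). It was given to Efnb2 as the nearest protein-coding gene body only.

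The 3 regions that fell lay outside their genes. One lay 10.6 kb beyond the far end of Ephb1 (chromosome 9, 101911225 to 101911834). It stood at 20.8 and 16.8 in Hoxa5-deficient libraries against 60.8 and 62.6 in controls (difference −1.18, SE 0.127, limma adjusted p = 0.0448). One 17.4 kb upstream of the Ephb3 start (chromosome 16, 21186919 to 21187930) stood at 11.5 and 11.2 in Hoxa5-deficient libraries against 44.9 and 37.8 in controls (difference −0.99, SE 0.131, limma adjusted p = 0.0479). The largest fall was 4.16 kb beyond the far end of Efnb1, a B ephrin (chromosome X, 99152775 to 99153590). There the percentiles were 1.82 and 2.72 in Hoxa5-deficient libraries against 62.3 and 50.7 in controls, and the tags 16 and 21 in Hoxa5-deficient libraries against 73 and 44 in controls (difference −2.17, SE 0.165, limma adjusted p = 0.0448). Both Hoxa5-deficient libraries lay below both controls in each of the 3 regions. All 6 calls lie just under the threshold, and each of the 6 ended when any 1 library was left out, when 0 regions of the whole table passed. Logit percentiles and ranks within whole lists, as other scales, also gave 0 calls in the family and in the whole table. Of the 120 family regions, 18 and 23 were then higher and 20 and 13 lower at an unadjusted p under 0.05 by limma. In the main fit 19 were higher and 22 lower at that p, against 9476 and 9243 of all 65789 shared regions. Counts over all regions at that p are not at hand for the other scales. With a variance trend the same test called 15 family regions higher, against 11.1% of all shared regions, and 13 lower, against 9.53%; 5 of the 6 were among them, and the Ephb3 region had an adjusted p of 0.0530.

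Of the 10 next largest differences with groups apart, none past the threshold, 6 were at Ephb1, a receptor of B ephrins with a gene body of 432.6 kb (chromosome 9, 101922128 to 102354693). Higher in both Hoxa5-deficient libraries were the region 229 kb into the gene (102125273 to 102126123), at 59.1 and 66.5 in Hoxa5-deficient libraries against 7.90 and 25.0 in controls, and the one 156 kb into it (102197816 to 102199069), at 53.3 and 58.9 in Hoxa5-deficient libraries against 6.84 and 18.2 in controls. So was the one at 290.0 kb (102064267 to 102065119), at 48.2 and 49.7 in Hoxa5-deficient libraries against 19.4 and 8.96 in controls. Lower in both were the region at 119 kb (102235358 to 102236094), at 4.57 and 0.15 in Hoxa5-deficient libraries against 51.9 and 55.5 in controls, and the one at 109 kb (102245607 to 102245956), at 20.6 and 30.1 in Hoxa5-deficient libraries against 51.9 and 62.4 in controls. The region at 161 kb (102192976 to 102193821) stood at 22.7 and 35.3 in Hoxa5-deficient libraries against 74.0 and 71.8 in controls. It lies within 10 kb of the higher region at 156 kb, so regions of opposite direction sit side by side in this gene. Their limma adjusted p ran from 0.0528 to 0.0799. Over the 31 shared regions of Ephb1, 14 (45.2%) were higher in both Hoxa5-deficient libraries, against 29.1% of all shared regions, 12 (38.7%) were lower, against 32.8%, and 5 overlapped.

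**Figure D2:**
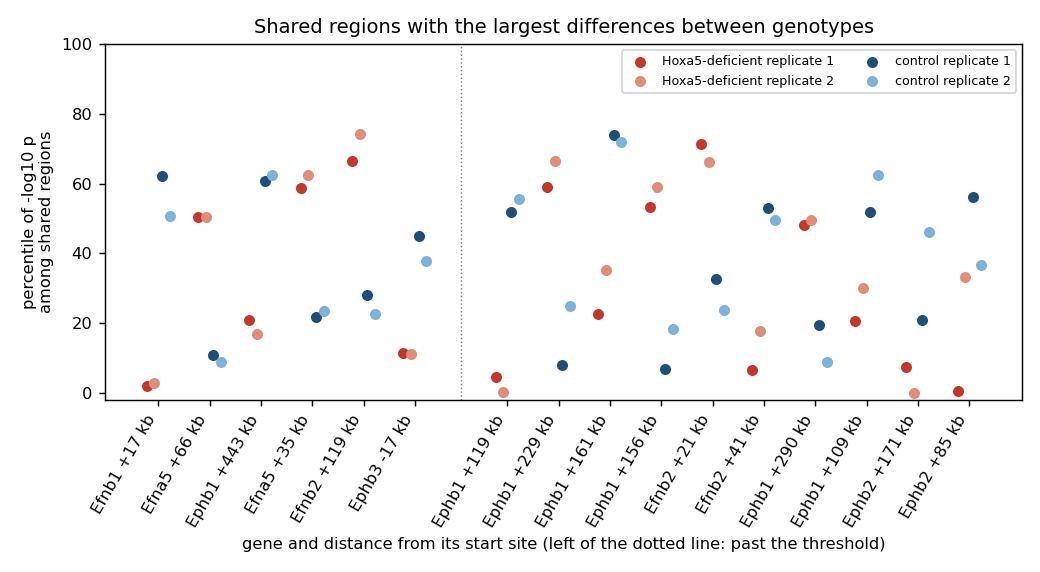
Percentile of −log10 p among shared regions (y axis) in each library for the 6 regions past the limma threshold (left of the dotted line) and the 10 others with the largest difference between non-overlapping groups (right), named by gene and distance from its start in kb. Hoxa5-deficient points (red shades) and control points (blue shades) lie apart in each region, as at Efna5 +66 kb, with 50.3 and 50.3 in Hoxa5-deficient libraries against 10.96 and 8.96 in controls.

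The other 4 were at Efnb2 and Ephb2. Efnb2 had a higher region 21.2 kb into the gene (8639583 to 8640541), at 71.4 and 66.1 in Hoxa5-deficient libraries against 32.7 and 23.7 in controls (limma adjusted p = 0.0522). It also had a lower one at 41.1 kb (8619596 to 8620754), at 6.55 and 17.8 in Hoxa5-deficient libraries against 52.9 and 49.6 in controls (limma adjusted p = 0.0688). All 7 shared regions of Efnb2 had groups apart, 3 higher and 4 lower in Hoxa5-deficient libraries, against 29.1% higher and 32.8% lower of all shared regions. Ephb2, a receptor of B ephrins, spans 188.8 kb (chromosome 4, 136647536 to 136836326). Its region 170.7 kb into the gene (136665098 to 136665450) stood at 7.41 and 0.0707 in Hoxa5-deficient libraries against 20.8 and 46.1 in controls, and the one at 85.0 kb (136750810 to 136751300) at 0.387 and 33.3 in Hoxa5-deficient libraries against 56.0 and 36.7 in controls. The replicates of a genotype differ widely in these last values, with limma adjusted p of 0.176 and 0.324.

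The counts by gene stand beside 29.1% higher and 32.8% lower over all shared regions. Of 25 shared regions of Ephb2, 12 (48%) were lower in both Hoxa5-deficient libraries, 2 (8%) were higher and 11 overlapped, with a median difference of −8.14 points. Of 24 at Efna5, 12 (50%) were higher, 6 (25%) lower and 6 overlapping, with a median of 5.22 points. Efna5, which spans 278.4 kb (chromosome 17, 62602957 to 62881317), had its higher regions spread along the gene: beside the 2 called ones, the region at 163.4 kb (62717487 to 62718288) stood at 67.0 and 71.2 in Hoxa5-deficient libraries against 38.8 and 43.9 in controls. That at 240.5 kb (62640559 to 62641136) stood at 82.7 and 82.2 in Hoxa5-deficient libraries against 63.7 and 65.1 in controls. These Efna5 regions were picked as examples after their values were seen, and their limma adjusted p were 0.0643 and 0.0747. No test of the difference between the genes was made. Ephb3, with 9 shared regions, had 3 lower and 6 overlapping, and Efnb1, with 11, had 4 lower, 1 higher and 6 overlapping. Efna3, with 6, had 3 lower and 3 overlapping, and Efna2 and Efnb3, with 3 each, had 1 lower and 2 overlapping. The only shared region of Ephb6 was its start.

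**Figure D3:**
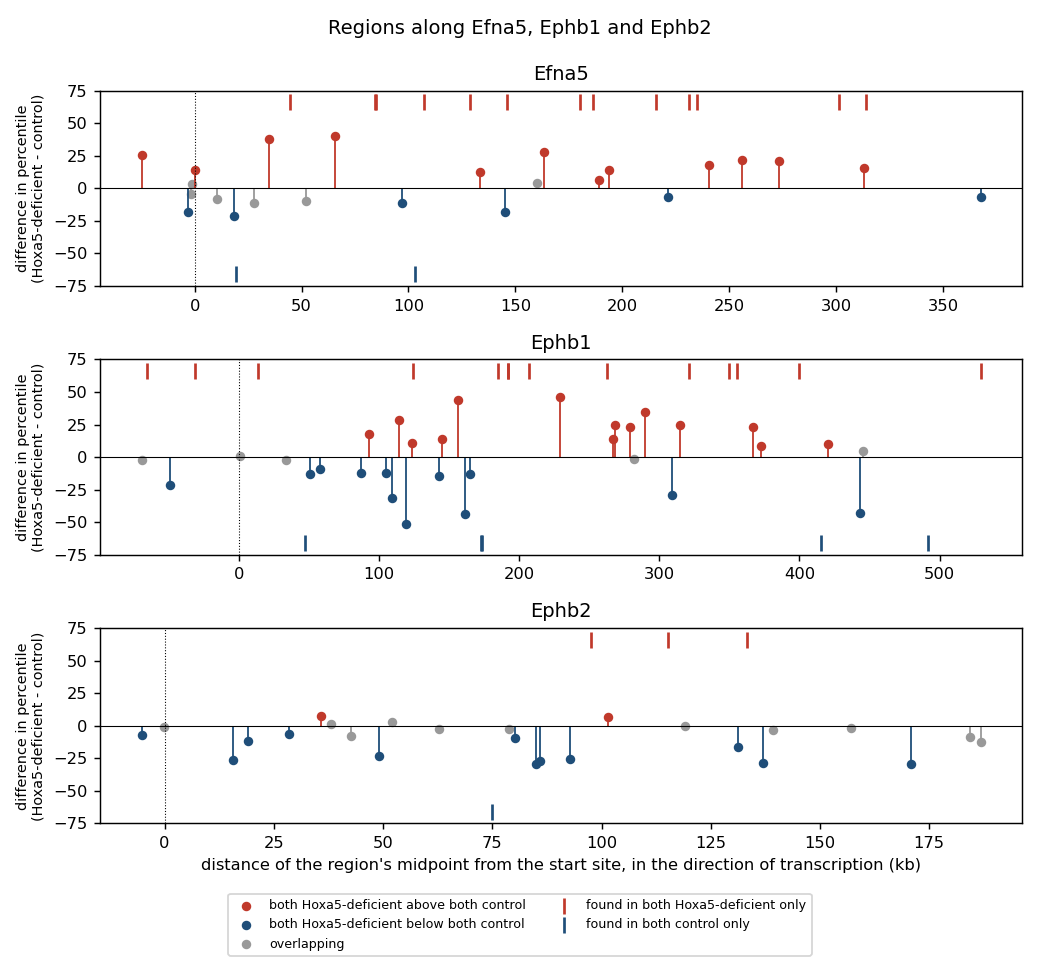
Difference in mean percentile, Hoxa5-deficient minus control (y axis, points), of each shared region against the distance of its midpoint from the gene's start in the direction of transcription (x axis, kb) for Efna5, Ephb1 and Ephb2. Colours mark regions whose groups do not overlap, and ticks at the upper and lower edge mark regions found in both libraries of 1 genotype and neither of the other. Efna5 has 12 points coloured as higher and 6 as lower, and Ephb2 has 2 and 12.

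Presence of regions in the family was near that of all genes. Of the 351 regions, 120 (34.2%) were found in all 4 libraries, against 34.7% of 165822 regions within 100 kb of any gene. Both Hoxa5-deficient libraries and neither control held 38 (10.8%), against 9.16% of all, and both controls and neither Hoxa5-deficient library held 13 (3.70%), against 3.5% of all. The family had 225 and 255 regions in Hoxa5-deficient libraries and 194 and 190 in controls. As shares of each library's regions these are 0.183% and 0.190% in Hoxa5-deficient libraries against 0.177% and 0.178% in controls. This difference of 0.00953 points had an exact permutation p of 0.333 (two-sided), the smallest that 2 against 2 libraries allow. With equal numbers of peak summits per library, 21 of 303 family regions (6.93%) were found in Hoxa5-deficient libraries only, against 6.76% of 142347 regions. A further 22 (7.26%) were found in controls only, against 5.73%. The controls then held more regions near genes, 93337 and 91273 against 85008 and 87188 in Hoxa5-deficient libraries. The part of list length in the counts was not tested.

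Regions found only in the Hoxa5-deficient libraries were at Ephb1 (14), Efna5 (13), Efnb2 (5), Ephb2 (3), Ephb6 (2) and Ephb3 (1). Their positions within each library's own full list are given here as percentiles. The strongest was 180.1 kb into Efna5 (62700629 to 62701730), at 73.4 and 73.1 with 50 and 64 tags, followed by one 192.2 kb into Ephb1 (102162300 to 102162631), at 64.5 and 63.2. The second of Ephb1 (102230191 to 102230715) stood at 53.0 and 60.2 and that of Efna5 (62579486 to 62580138, 23.1 kb past its far end) at 59.9 and 48.0. Over the 38 regions the weaker percentile had a median of 19.99, against 27.1 over all 20640 such regions. Ephb6 had one 12.4 kb upstream of its start (chromosome 6, 41592774 to 41593440), at 48.1 and 42.3, and another (41619016 to 41619421) at 11.1 and 50.7. Ephb2 had 136738193 to 136738521 at 35.4 and 41.0 and 136702566 to 136702850 at 29.6 and 41.1. Efnb2 had 8566339 to 8566696 at 37.2 and 31.6 and 8595888 to 8596322 at 25.1 and 11.1, both beyond its far end. The 1 of Ephb3 (21294803 to 21295275), 90.2 kb downstream of the start, was at 29.6 and 28.3. With equal numbers of peaks Efna5 had 8 such regions against 4 in controls only, and Ephb1 had 8 in Hoxa5-deficient libraries only against 7 in controls only.

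Regions found only in controls were 5 at Ephb1, 2 each at Efna5 and Ephb3, and 1 each at Ephb2, Ephb6, Efna3 and Efnb2. The strongest by its weaker percentile was 27.9 kb upstream of the Ephb6 start (41577385 to 41577835), at 46.8 and 61.6. Ephb1 had 101939041 to 101939411 at 49.7 and 42.5, 102307547 to 102307929 at 43.1 and 25.5, 101862467 to 101862804 at 21.8 and 41.1, and the neighbours 102181073 to 102181873 at 18.7 and 22.9 and 102181980 to 102182353 at 43.4 and 5.30. Of the other receptors, Ephb2 had 136760957 to 136761177 at 28.8 and 48.1, and Ephb3 had 21274246 to 21274462 at 10.3 and 41.1 and 21322528 to 21322835 at 21.8 and 44.2. Among the ligands, Efna5 had 62778047 to 62778446 at 38.8 and 41.1 and 62861853 to 62862116 at 19.8 and 25.8. Efna3, another A ephrin, had 1 inside the gene (chromosome 3, 89315626 to 89315896) at 45.2 and 31.2. That of Efnb2 (8521527 to 8521784) stood at 26.9 and 41.1. It lies under 1 kb from a region found in Hoxa5-deficient libraries only (8520969 to 8521239), at 8.92 and 20.4. Over these 13 the weaker percentile had a median of 25.5, against 25.4 over all 6825 such regions. Efna2, Efnb1 and Efnb3 had no region of either kind.

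**Figure D4:**
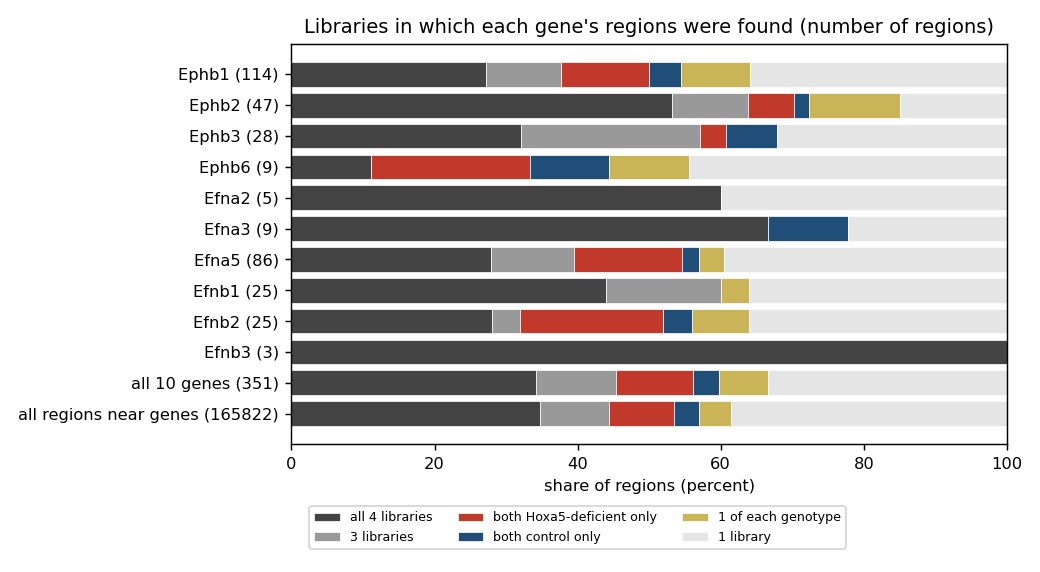
Share of regions (x axis, percent) by the libraries they were found in, for each gene (y axis, number of regions in brackets), for the 10 genes together and for all regions within 100 kb of a gene. The bar of the 10 genes, with 34.2% in all 4 libraries, 10.8% in both Hoxa5-deficient only and 3.70% in both controls only, is close to that of all regions, with 34.7%, 9.16% and 3.50%.

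Other genes of the pathway are given as counts. The 9 EphA receptor genes, which bind the A ephrins, had 274 regions, 32 of them (11.7%) in both Hoxa5-deficient libraries only, against 9.16% of all regions near genes, and 18 (6.57%) in both controls only, against 3.5%. Of their 70 shared regions, limma called 2 higher, against 2.4% of all shared regions, and 2 lower, against 1.65%. The groups were apart at 22 higher ones (31.4%), against 29.1% of all, and 18 lower ones (25.7%), against 32.8%. The 23 genes of signalling partners, such as the adaptors Nck1 and Nck2, the guanine nucleotide exchange factors Vav2, Vav3 and Ngef, and the chimaerin Chn1, had 797 regions, 83 in both Hoxa5-deficient libraries only, against 9.16% of all, and 28 in both controls only, against 3.5%. Of their 226 shared regions limma called 5 higher, against 2.4% of all shared regions, and 8 lower, against 1.65%. The groups were apart at 72 higher ones (31.9%) and 66 lower ones (29.2%). All 9 EphA genes but Epha6 had a gene end open in all 4 libraries, as did 21 of the 23 partners.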

How the data were processed

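ATAC-seq of 2 Hoxa5-deficient and 2 control libraries was used, grouped by the labels' titles. MACS2 2.2.4, Bowtie2 2.3.4.3, SAMtools 1.9, FastQC 0.11.9 and the build mm10 stand in the submitters' processing notes. Settings and any shift of reads for Tn5 insertion are not given in the sources used here. Each library has its own deposited peak list, with base positions, a capped score, a fold ratio over background, and the −log10 p-value and −log10 q-value of every summit. These are the authors' values for single peaks and served only to describe, rank and filter. The deposited lists end just above a −log10 p of 2, a permissive threshold, and a q-value under 0.05 held for 90.3% to 92.8% of their summits.

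Intervals were merged at 1 bp overlap and assigned with 21887 protein-coding gene bodies of RefSeq GRCm38.p6, which shares the coordinates of mm10. Positions are 1-based. Ranks among regions found in all 4 libraries were turned into normal scores and fitted with limma 3.58.1 in R 4.3.3, with Benjamini-Hochberg adjustment. Tied ranks were averaged. The whole-number tags at a summit follow from its deposited fold and p, and 100% of 20000 summits sampled per library gave a whole number that met the deposited −log10 p within 0.001 of its value (or of 1, if larger). P-values measure the spread between these libraries.

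The genes and lists were chosen with earlier results of these data known. The regions named are the strongest of each gene, those over its ends, those in 1 genotype only (at most 2 per gene where over 20), those past the limma threshold and the 10 next largest with groups apart. Alternatives covered the peak threshold, equal peak numbers, summit windows, assignment, ranking, the replicate block and leaving out each library.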

Additional observations from a re-analysis of the deposited data

How the results depend on the processing

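Counts of family regions moved with the peaks used. With −log10 q of 5 or more, 79 regions were in all 4 libraries, 23 in Hoxa5-deficient libraries only and 7 in controls only, and the difference in share turned to −0.00430 points. With equal peak numbers 21 of 303 were in Hoxa5-deficient libraries only and 22 in controls only, and the difference in share was 0.00335 points. Within 10 kb of a gene 8 were in controls only. Leaving out each library in turn gave 122 to 136 in every remaining library, 53 to 87 in Hoxa5-deficient libraries only and 15 to 37 in controls only. Gene ends open in every library stayed at 12 or 13 in every setting.

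The limma calls, 3 higher and 3 lower of 120, became 15 and 13 with a variance trend, against 7309 and 6268 of all 65789 shared regions. Ranks of fold gave 4 and 6 (all 6 called there too), against 2237 and 1513 of the 65789. The stricter q gave 3 and 2 of 79, against 1231 and 790 of 45303. Logit percentiles and ranks within whole lists gave 0 and 0, in the family and over all regions. On leaving out any 1 library the 6 calls ended, and the lone library left was then assumed to vary like the others. The cause was not tested. With the replicate block the calls were 0 and 0, in the family and over all regions. At an unadjusted p under 0.05 by limma, 15 family regions were then higher and 19 lower. The main fit had 19 and 22 at that p, against 9476 and 9243 of all 65789 shared regions. Same-numbered libraries deviated from their group means with a correlation of −0.00125 over 65789 regions. With 2 libraries per group, this correlation cannot show whether same-numbered libraries were prepared together. None of the 16 named regions changed direction in any fit that held it. They were picked with groups apart, so this was largely fixed in advance and is no check of them. With 2 libraries per group, small differences were not detectable.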

Other observations

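Among 2095 genes with 20 or more regions, the 3 whose shares of regions in the presence classes lay nearest to those of the 10 Eph and ephrin genes pooled were Sema4d (27 regions, summed difference 1.71 percentage points), Osbpl10 (42 regions, 4.31 points) and S1pr1 (28 regions, 5.37 points). Sema4d, a membrane semaphorin, had 9 regions in all 4 libraries, 3 in both Hoxa5-deficient libraries only and 1 in both controls only.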
